A study of Caenorhabditis elegans with 12 samples.

Results

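The miR-72 family of Caenorhabditis elegans is described here through its 3 probes on an NCode microRNA array, cel-miR-72, cel-miR-73 and cel-miR-74. They were chosen by probe name and not by a rule on their values, although earlier results of these data were known. They make up 3 of the 114 C. elegans microRNAs on the array. Each array compared small RNA below 200 nt from a worm model of Parkinson's disease with RNA of the wild-type strain N2, in 2 dyes on the same spots. The first group carried human alpha-synuclein A53T as a transgene, whose promoter is not given in the sources used here. A second group was the cat-1 mutant strain CB1111 (allele e1111), with loss of function of a catecholamine transporter, and the third the pdr-1 mutant strain VC1024 (allele gk448), with loss of function of the worm parkin. All worms, N2 included, were at larval stage 4 and grown at 20 °C, and each model was represented by a single strain. The labels give 4 separate worm populations per strain, but 2 of the cat-1 scanner files held the same values, which left 11 arrays, 4 of them with alpha-synuclein worms, 3 with cat-1 mutants and 4 with pdr-1 mutants. Where the spread between arrays is given, it is that between these populations, each paired with N2 RNA.

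MicroRNAs are short RNAs that guide Argonaute proteins to messenger RNAs, mostly through the bases near their 5′ end, the seed, and lower the output of those messages. The worm microRNAs miR-72, miR-73 and miR-74 are grouped by a shared seed, which they also share with miR-31 of flies and vertebrates, so that they can be expected to recognise overlapping sets of messages. In the gene table used for names (assembly WBcel235), mir-73 and mir-74 lie close together on chromosome X, with 2 annotated genes between them, while mir-72 lies alone on chromosome II. A short array probe can also bind a close relative of its target, and cross-binding between the members was not tested.

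The arrays differed widely in how many spots gave a signal at all. Between 30 and 134 of the 342 C. elegans spots (3 per microRNA) held a signal above 0, the lowest numbers being 30 on pdr-1 replicate 1 and 31 on alpha-synuclein replicate 4. All 5 larval timing microRNAs of a list that holds lin-4 and the let-7 family were measured on 7 to 11 arrays, whereas of 8 embryonic miR-35 family microRNAs 5 gave a signal, on at most 2 arrays. On the cat-1 arrays 15 to 18 blank spots held a signal, against 0 to 3 on the others, and its part in the cat-1 values was not tested. N2 carried the same dye on every array, so a dye bias of a probe and a change in a strain cannot be told apart in the ratios to N2. Which scanner column is which dye is not stated; the second was taken as the strain, the likely order from the labels, and every sign below rests on it. The ratios of pdr-1 replicates 1 and 4 correlated at -0.593 over 14 shared microRNAs after normalization. Replicate 4 correlated at 0.420 with replicate 3 over 31 microRNAs and at 0.043 with replicate 2 over 16. Replicate 1 stood at 0.025 and -0.022 with replicates 2 and 3. The direction of replicates 1 and 4 is not settled, and replicate 4 is also given with its sign turned. Between pairs of alpha-synuclein arrays the correlation ran from -0.115 to 0.472, and between pairs of cat-1 arrays from 0.347 to 0.521.

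All 3 members were detected in each of the 3 strains, but not on every array. A signal was present for miR-72 on 7 of 11 arrays, for miR-73 on 6 and for miR-74 on 6. Of the 114 C. elegans microRNAs, 23 were seen on more arrays than miR-72 and 33 on more than miR-73 or miR-74. None of the 9 member spots gave a signal on alpha-synuclein replicate 4, cat-1 replicate 1 or pdr-1 replicate 1. The first and last of these had few signals of any kind. On cat-1 replicate 1 there were 91 C. elegans spots with a signal, against 77 on alpha-synuclein replicate 1, where 4 member spots were read. Counted as microRNAs with a signal the order was the other way, with 36 on cat-1 replicate 1 and 50 on alpha-synuclein replicate 1.

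**Figure D1:**
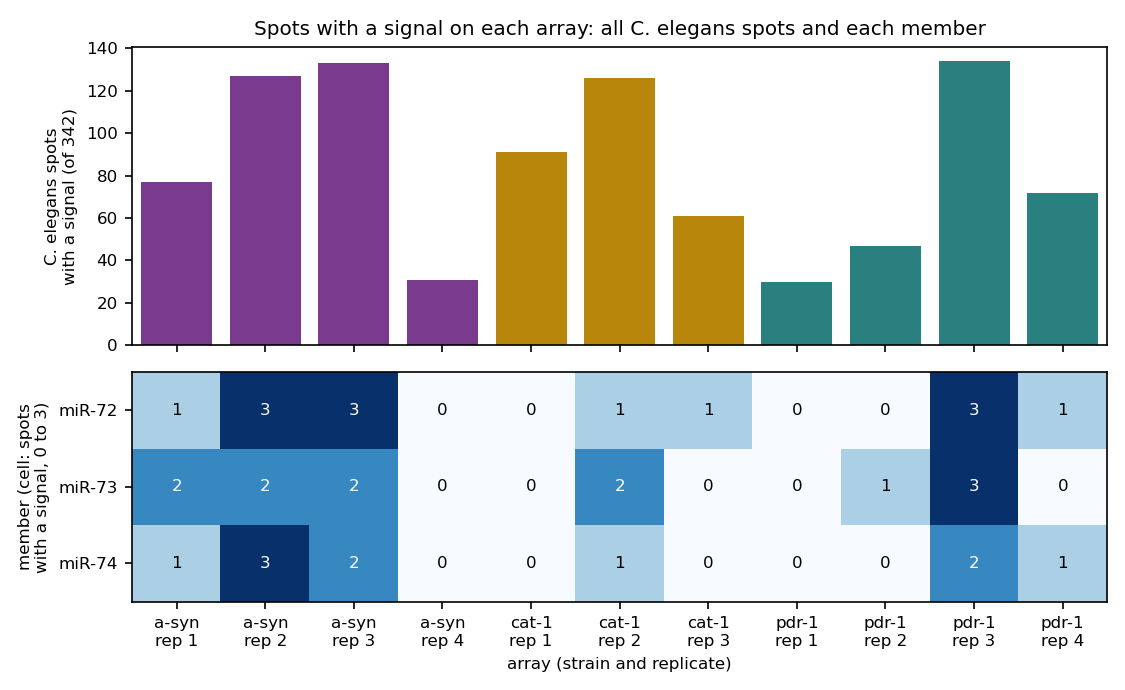
Spots with a signal on each of the 11 arrays. The bars give the C. elegans spots with a signal out of 342, coloured by strain, and each cell of the grid gives how many of the 3 spots of a member held a signal (0 to 3). The members were read with 7 or 8 spots in all on alpha-synuclein replicates 2 and 3 and on pdr-1 replicate 3, the arrays with 127 to 134 C. elegans spots. They were read with 0 on cat-1 replicate 1, where 91 C. elegans spots and 36 microRNAs had a signal.

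Where a member was read on an array, often not all of its spots held a signal. Over the 11 arrays the members had 99 spots, of which 34 held a signal in both channels, 1 in the strain channel only, 0 in the N2 channel only and 64 in neither. Among the other C. elegans spots 833 held both signals and 61 only 1. In 14 of the 19 cases in which a member was read on an array, at least 1 of its 3 spots was at 0 while another held a signal (73.7%, against 50.1% of 401 cases for the other microRNAs). On alpha-synuclein replicate 2, for example, 1 spot of miR-73 gave 0 in both channels, while the other 2 spots gave 1017320 and 1130268 for N2 and 4031598 and 3615187 for the strain. On alpha-synuclein replicate 1 the signals were unevenly spread over the 3 sets of replicate spots, with 49, 8 and 20 C. elegans spots in list order, and every member was read in the first set and 0 of them in the next. An array without a value for a member therefore does not show that the member was low there.

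miR-72 had the widest detection of the family and gave 13 readable spots. Its N2 signal, as the mean of the spots read, was 315604, 490676 and 101651 on alpha-synuclein replicates 1 to 3. The cat-1 arrays gave 1145783 on replicate 2 and 395346 on replicate 3, and the pdr-1 arrays gave 870627 on replicate 3 and 302616 on replicate 4. Before any scaling, the N2 values thus spanned an 11.3-fold range for the same wild-type strain. The arrays themselves differed in brightness, with a median N2 signal from 107571 on alpha-synuclein replicate 3 to 949744 on cat-1 replicate 3. In the strain channel miR-72 stood at 499317, 2636861 and 3381802 in alpha-synuclein worms, at 2780856 and 1245997 in cat-1 and at 3386575 and 1032976 in pdr-1, in the same order of replicates. The strain signal lay above the N2 signal on 7 of 7 arrays and at every spot.

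miR-73 was read at 12 spots, 1 of them in the strain channel only. Its N2 signal was 656311, 1073794 and 84583 on alpha-synuclein replicates 1 to 3, 128647 on cat-1 replicate 2, and 424358 and 471586 on pdr-1 replicates 2 and 3. The strain signal on the same arrays was 645514, 3823392, 3554920, 354450, 1345236 and 2831031, where the value on alpha-synuclein replicate 3 includes the spot without an N2 signal. Alpha-synuclein replicate 1 was the 1 array on which the strain did not exceed N2 before normalization, at both spots read. The lowest strain signal, 354450, was on cat-1 replicate 2, the only cat-1 array that read miR-73.

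miR-74, the neighbour of miR-73, was read at 10 spots. Its N2 signals before any scaling lay between 146315 on alpha-synuclein replicate 3 and 527652 on pdr-1 replicate 4, a 3.61-fold range. Alpha-synuclein replicates 1 and 2 gave 260935 and 438575, cat-1 replicate 2 gave 456116 and pdr-1 replicate 3 gave 515665. The strain signals were 434189, 2694704 and 2941870 in alpha-synuclein worms, 1027288 in cat-1, and 3345848 and 2107733 in pdr-1 replicates 3 and 4. As for miR-72, the strain channel was the brighter on every array that measured it.

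**Figure D2:**
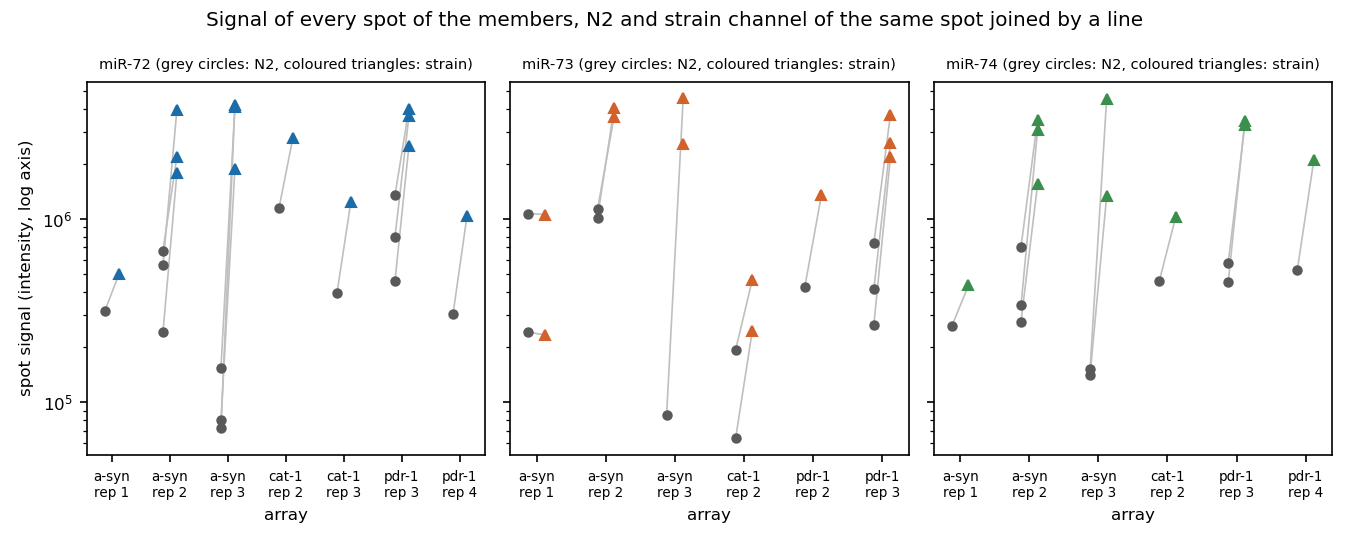
Signal intensity (log axis) of every spot of miR-72, miR-73 and miR-74 with a value, by array. Grey circles are the N2 channel and coloured triangles the strain channel of the same spot, joined by a line. The strain lies above N2 at all spots except the 2 of miR-73 on alpha-synuclein replicate 1, and the gap is widest on alpha-synuclein replicate 3.

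Relative to other microRNAs of the same channel, the N2 level of each member also varied from array to array. Set against the mean log2 signal of the 7 microRNAs read in both channels on all arrays, the N2 level of miR-72 had an SD of 1.17 (log2, n = 7 arrays), from -2.09 on alpha-synuclein replicate 1 to 0.81 on cat-1 replicate 2. The SD of the N2 level was 0.93 for miR-73 and 1.03 for miR-74 (n = 6 each), and the level of miR-74 spanned a 7.73-fold range on this scale. These lie near the median SD of 0.95 over 32 other microRNAs with at least 6 such values. In the strain channels the SD was 0.77, 1.05 and 0.55 for miR-72, miR-73 and miR-74, against a median of 0.81 over 33. For miR-73 this scaled level was lowest on cat-1 replicate 2 in both channels, at -2.35 in N2 and -1.47 in the mutant. Both channels were read from the same spots, so these are not 2 separate observations of a low level.

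Before any normalization the strain signal exceeded N2 in 18 of the 19 member values, but most other microRNAs did the same. On alpha-synuclein replicates 1 to 3 the ratio of strain to N2 (the geometric mean over spots with both signals) was 1.58, 5.54 and 33.2 for miR-72, 0.976, 3.56 and 53.8 for miR-73, and 1.66, 6.32 and 16.9 for miR-74. The median ratio over all C. elegans spots on these arrays was 0.885, 3.37 and 23.8, so the members moved with their arrays. On cat-1 replicate 2 the ratios were 2.43, 3.03 and 2.25 for miR-72, miR-73 and miR-74 against an array median of 1.73, and on cat-1 replicate 3 miR-72 stood at 3.15 against 1.13. In the pdr-1 mutant the values lay on both sides of the array medians. On replicate 3 they were 4.19, 6.39 and 6.54 against 5.61, on replicate 4 they were 3.41 for miR-72 and 3.99 for miR-74 against 3.03, and on replicate 2 miR-73 stood at 3.17 against 4.48. Ratios above 1 made up 89.7% of 349 values of the other tested microRNAs.

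**Figure D3:**
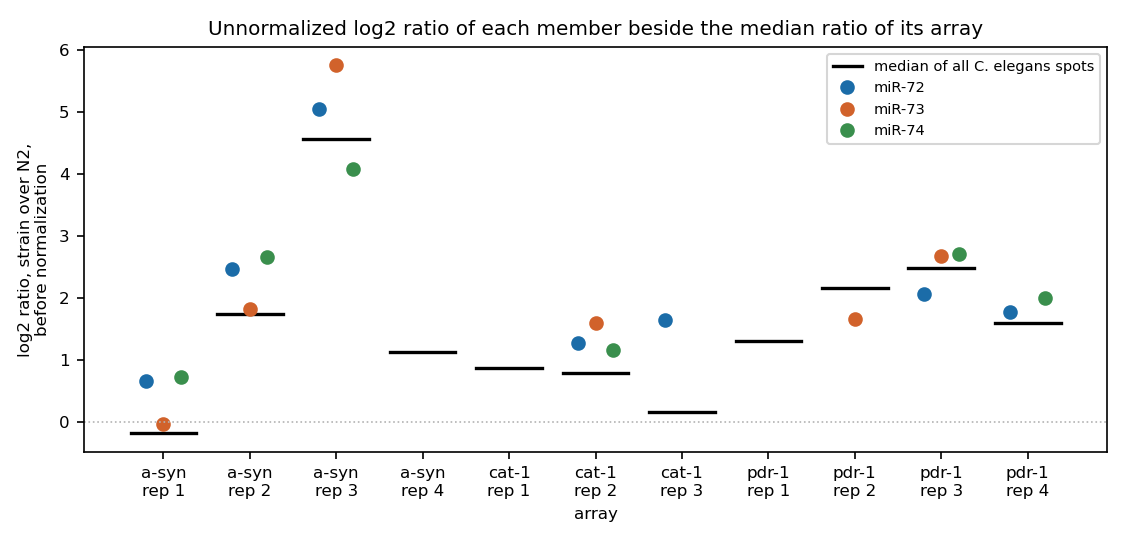
Log2 ratio of strain over N2 before normalization (y axis) for each member on each array (x axis), with a black bar at the median of all C. elegans spots of the array. The members follow the array medians, and lie above them on alpha-synuclein replicates 1 and 2 and on both cat-1 arrays that measured them; on alpha-synuclein replicate 3 and in pdr-1 they lie on both sides.

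Normalization within each array (loess, which removes the trend of the ratio with brightness over the C. elegans spots) left the family mostly above 0. Of the 19 values of the members 16 were above 0, or 84.2%, against 50.7% of 349 values of the other tested microRNAs. Alpha-synuclein worms contributed 8 of 9 such values, cat-1 mutants 4 of 4 and pdr-1 mutants 4 of 6. The values share arrays and, on each array, the dye orientation, so they are not 19 independent observations. The spread between spots of a member on the same array was large, with a median SD of 0.46 (log2, 10 cases with at least 2 spots) against 0.24 over 276 cases of other microRNAs. It reached 1.18 for miR-74 on alpha-synuclein replicate 3, where the 2 spots differed 3.17-fold in ratio.

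In alpha-synuclein worms the 3 members had positive means, and 0 of 3 passed the test. miR-72 stood at 1.27, 0.50 and 0.45 (log2 ratio of strain over N2) on replicates 1 to 3, all above 0. Its mean was 0.74 ± 0.37 (SE, n = 3), or 1.67-fold, with a 95% interval of 0.011 to 1.47 and an adjusted p of 0.257 by limma over 50 microRNAs (unadjusted p = 0.0468). This interval uses 1 SD of 0.64 for all strains, while the alpha-synuclein arrays had 0.81. With the spread taken from these arrays only, the SE of miR-72 was 0.47 and its limma adjusted p 0.577, with 1 of 50 microRNAs called. miR-73 had values of 0.17, 0.72 and 0.52 with a mean of 0.47 ± 0.37 (limma adjusted p = 0.449). With median centring the same arrays gave 0.14, 0.08 and 1.18, so the array with the highest value depended on the scale. The ratio on replicate 3 rests on 1 spot with both signals. miR-74 stood at 1.07, 0.70 and -0.27, so that its arrays fell on both sides of 0 around a mean of 0.50 ± 0.37 (limma adjusted p = 0.404). The median of the members was 0.50 against 0.14 over all 50 tested, of which 5 were called, or 10.0%, 2 higher and 3 lower. Without replicate 1 the mean of miR-72 was 0.48 and that of miR-74 was 0.22, and without replicate 3 miR-74 was 0.89. The call depended on the scale. Without any normalization the 3 members passed, at 2.73, 2.52 and 2.49 (limma adjusted p = 0.0309, 0.0351 and 0.0351), where the median of all tested microRNAs was itself at 1.84 and 18 of 18 calls were higher. Centred on the 7 microRNAs read on all arrays, a scale chosen after seeing the data, they stood at 1.39, 1.18 and 1.15 (limma adjusted p = 0.00449, 0.0131 and 0.0155), with that median at 0.92 and 23 of 25 calls higher. Centred on the dye controls they stood at 2.52, 2.31 and 2.28 and did not pass (limma adjusted p = 0.0734, 0.0795 and 0.0795), with that median at 1.63 and 0 of 50 called. With scaling between arrays the means were lower, at 0.38, 0.32 and 0.19. The values of the authors' deposited table gave miR-73 a mean of 0.05, from 0.19, -1.12 and 1.09 on replicates 1 to 3. The scale and direction of its replicate 2 column are unknown.

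In the cat-1 mutant miR-72 had the second highest mean of 48 tested microRNAs, from 2 arrays, and 0 of 3 members passed. Its values were 0.46 on replicate 2 and 1.35 on replicate 3, each read from a single spot, with a mean of 0.91 ± 0.45 (SE, n = 2), or 1.88-fold. The 95% interval was 0.011 to 1.80 and the limma adjusted p was 0.568 (unadjusted p = 0.0473). miR-73 at 0.23 and miR-74 at 0.55 were measured on replicate 2 alone and have no replicate in this strain. With median centring they stood at 0.81 and 0.38, and in the authors' deposited table at 0.88 and 0.45. A spot of miR-73 held 63703 for N2, the lowest N2 signal of the C. elegans spots on that array. The median of the members was 0.55 against 0.07 over all tested, of which 0 were called, or 0%, with 4 at an unadjusted p below 0.05. The test used 1 spread for all strains, an SD of 0.64, while the cat-1 arrays had 0.38. With the spread taken from cat-1 only and the same mean, the SE of miR-72 was 0.30. It then passed (limma adjusted p = 0.0401), as 1 of 4 microRNAs called of 48, all higher. That SE rests on a spread shared by all microRNAs in cat-1, while the 2 values of miR-72 itself had an SD of 0.63. In a plain test, with the spread of each microRNA from its own arrays in all strains, its adjusted p was 0.944.

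In the pdr-1 mutant 0 of 3 members passed, and the means of miR-72 and miR-73 were -0.02 and -0.00031. miR-72 gave 0.04 on replicate 3 and -0.08 on replicate 4, with a mean of -0.02 ± 0.45 (SE, n = 2). Centred on the array median in place of loess, miR-72 gave -0.42 on replicate 3 and 0.17 on replicate 4, so its closeness to 0 depended on the scale. miR-73 gave -0.41 on replicate 2 and 0.41 on replicate 3, and these cancelled to a mean of -0.00031 ± 0.45. miR-74 was above 0 on both its arrays, at 0.44 and 0.22 on replicates 3 and 4, with a mean of 0.33 ± 0.45. The 95% intervals ran from -0.91 to 0.88 for miR-72, from -0.90 to 0.90 for miR-73 and from -0.57 to 1.23 for miR-74. The limma adjusted p-values were 0.992, 0.999 and 0.905, and 0 of 48 microRNAs were called (0%), with 2 at an unadjusted p below 0.05. With replicate 4 turned the means of miR-72 and miR-74 were 0.06 and 0.11.

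**Figure D4:**
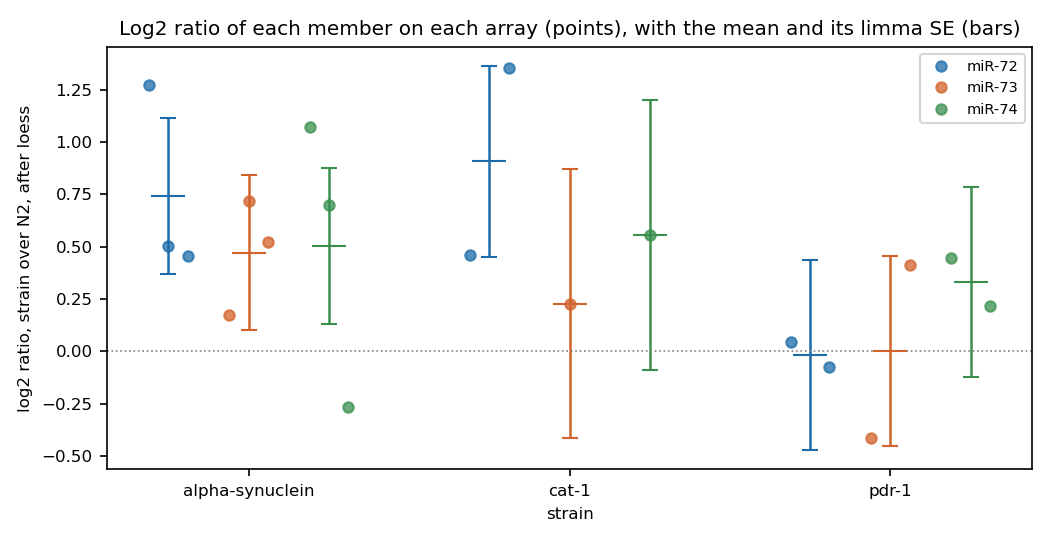
Log2 ratio of strain over N2 after loess (y axis) by strain (x axis). Points are arrays, short horizontal bars the mean and vertical bars its SE from limma; miR-73 and miR-74 have a single array in cat-1. miR-72 lies above 0 on all 5 alpha-synuclein and cat-1 arrays that read it and near 0 on the 2 pdr-1 arrays.

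The strain mean of miR-72 was 0.74 in alpha-synuclein, 0.91 in cat-1 and -0.02 in pdr-1, and no difference between strains passed. For miR-72 alpha-synuclein minus cat-1 was -0.16 ± 0.59 (SE, 95% interval -1.32 to 0.99), alpha-synuclein minus pdr-1 was 0.76 ± 0.59 (-0.40 to 1.92) and cat-1 minus pdr-1 was 0.92 ± 0.64 (-0.34 to 2.19). The limma adjusted p-values were 0.976, 0.861 and 0.981. miR-73 differed by 0.24 between alpha-synuclein and cat-1, by 0.47 between alpha-synuclein and pdr-1 and by 0.23 between cat-1 and pdr-1. For miR-74 these differences were -0.05, 0.17 and 0.22. The limma adjusted p-values of miR-73 and miR-74 lay between 0.924 and 0.981. With pdr-1 replicate 4 turned, alpha-synuclein minus pdr-1 was 0.68 for miR-72 and 0.39 for miR-74, and cat-1 minus pdr-1 was 0.85 and 0.44. In these contrasts a constant dye bias cancels. Over all tested microRNAs, 0 of 48 (0%), 1 of 48 (2.08%) and 0 of 46 (0%) were called in the respective contrasts, with 4, 4 and 0 at an unadjusted p below 0.05.

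Averaged over the 3 strains with equal weight, miR-72 was 1.46-fold above N2, at 0.54 ± 0.25 (SE, 7 arrays, 6 above 0), with a limma adjusted p of 0.199 over 46 microRNAs and an unadjusted p of 0.0289. miR-74 followed at 0.46 ± 0.29 (6 arrays, 5 above 0, adjusted p = 0.345 by limma) and miR-73 at 0.23 ± 0.29 (6 arrays, 5 above 0, adjusted p = 0.771 by limma). In this average 0 microRNAs were called (0%), with 8 at an unadjusted p below 0.05, and the median over all tested was 0.07. The 3 members ranked 4th, 15th and 7th of 46 from the top for miR-72, miR-73 and miR-74. With pdr-1 replicate 4 turned the averages of miR-72 and miR-74 were 0.57 and 0.39. With the values of the authors' deposited table, the average of miR-72 passed at 0.54 (limma adjusted p = 0.0486), as 1 of 9 called of 46. That average includes the 2 columns whose scale, centring and direction are unknown.

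**Figure D5:**
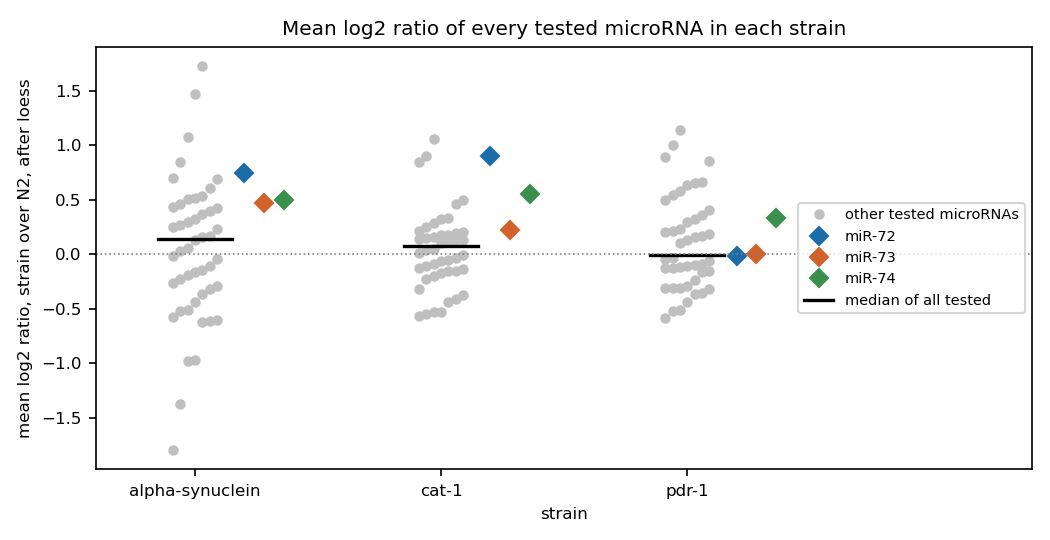
Mean log2 ratio of strain over N2 after loess (y axis) of every tested microRNA in each strain (x axis). Grey points are the other microRNAs, diamonds the members and black bars the median of all tested. In alpha-synuclein and cat-1 the members sit above the median inside the range of the other microRNAs, and in pdr-1 miR-72 and miR-73 sit at the median.

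Within arrays the members did not differ from each other beyond their spread. miR-72 minus miR-73 averaged 0.14 (log2, n = 5 arrays, SD 0.58), with 2 of 5 arrays above 0 and the largest gap of 1.10 on alpha-synuclein replicate 1. miR-72 minus miR-74 averaged -0.01 (n = 6, SD 0.41, 2 above 0). miR-73 minus miR-74, the neighbours on chromosome X, averaged -0.09 (n = 5, SD 0.61) and ran from -0.90 on alpha-synuclein replicate 1 to 0.79 on replicate 3 of the same strain. Exact two-sided sign-flip permutation tests gave p = 0.813, 1 and 0.625, each 1 after adjustment over the 3 pairs, where 5 arrays cannot give less than 0.0625 and 6 not less than 0.0313. The SD of the difference for the neighbours on chromosome X, 0.61, compares with 0.58 and 0.41 for the pairs with miR-72, and was not tested.

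Only miR-72 and miR-74 shared enough arrays for a correlation. Over 6 arrays their normalized ratios had a Pearson r of 0.606 (exact permutation p = 0.182) and a Spearman rho of 0.829 (exact permutation p = 0.0583). Without the 2 arrays farthest from the median of miR-72 the r was -0.059, so the relation of the loess ratios rests on those arrays. After the strain means were subtracted r was 0.644 and rho 0.60 (exact permutation p = 0.174 and 0.242), with an r of 0.539 without the 2 farthest arrays. No strain had the 6 arrays needed for a value of its own. Before normalization the r was 0.948 (exact permutation p = 0.00278) and 0.934 without the 2 farthest arrays, with the overall tilt of each array entering both members.

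The nearest patterns among other microRNAs could be given for detection only, since naming by ratio asked for 8 shared arrays and the members were read on at most 7. The microRNAs named here were chosen after their values were seen. miR-71, miR-228 and miR-241 were detected on exactly the same arrays as miR-72, miR-77 on the same as miR-73, and miR-70 on the same as miR-74. These likenesses rest on the same 11 arrays and their unequal numbers of spots with a signal.

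The authors' deposited table gives log2 ratios for the same spots, and 10 of its 12 columns equal the scanner ratios less the log2 ratio of the summed signals. In the authors' deposited table miR-72 stood at 0.89, 0.56 and 0.39 in alpha-synuclein replicates 1 to 3, at 0.56 and 1.53 in cat-1 replicates 2 and 3, and at -0.23 and 0.16 in pdr-1 replicates 3 and 4. The cat-1 replicate 4 column of the authors' deposited table differs from the repeated scanner file, and its scale, centring and direction are unknown. It holds 1.03 for miR-72 and 0.29 for miR-73, from 1 spot each. The alpha-synuclein replicate 2 column of the authors' deposited table could also not be matched, with a correlation of 0.721 to the scanner ratios over 126 spots. For that array the authors' deposited table has miR-73 at -1.12, where the scanner values gave 0.72 after loess and 0.08 with median centring. It has miR-74 at 1.28, where the scanner values gave 0.70 and 0.91. As the scale of this column is unknown, the sizes of these gaps cannot be judged.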

How the data were processed

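MicroRNA signals were measured on 12 two-channel arrays, 11 of them distinct. The deposited scanner files give a signal intensity and a flag letter for each spot and channel, per the file headers, without a background column, and a spot above 0 counted as detected. No source used here gives the scanner software, a background step or what the flags mean. The deposited value table holds log2 ratios, judged by setting each column against its scanner values. Medians of its alpha-synuclein columns, in order of replicate, were 0.07, 0.27, -0.06 and 0.40; the cat-1 columns had -0.03, 0.08, 0.03 and 0.13, and the pdr-1 columns 0.20, 0.05, 0.19 and -0.03. In 10 columns the values were log2 of the second channel over the first, centred on the ratio of sums. Scale, direction and centring stay unknown for alpha-synuclein replicate 2 and cat-1 replicate 4. Columns of other samples numbered 0.

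Spots flagged S, of which the members had 0, were dropped. Log2 ratios were corrected with loess fitted to the C. elegans spots (span 0.3, 4 iterations) and averaged over the spots of a probe. A microRNA entered the test with a signal on 4 arrays or more, which 50 did. The test was limma 3.58.1 in R 4.3.3, two-sided, with 1 mean per strain, a shared spread and Benjamini-Hochberg adjustment over all tested at 0.05. The prior degrees of freedom were infinite, so every microRNA had an SD of 0.64. The calculations were tested on simulated data. The number of arrays limits the precision. The members, lists and tests were chosen with earlier results of these data known. Named were the 3 members in every comparison and, by rule, the microRNAs with the most similar ratios over at least 8 shared arrays, of which there were 0. Seeds were not compared by sequence, and planned ranks of signal between probes are not given, as probes differ in brightness. Alternatives changed the normalization, flags, spots, filter, model, direction and replicate block, left out single arrays or used the deposited table. Background and slide alternatives were not run, as the files give neither.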

Additional observations from a re-analysis of the deposited data

Results flagged for a closer look

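In alpha-synuclein worms miR-73 was read at 2 spots on each of replicates 1, 2 and 3 and at 0 on replicate 4. The gap of replicate 4 to the nearest other array, divided by the range over the 4 arrays, was 1, above the 0.829 that marks an array as far from the others. Of 8 such sets of 4 arrays examined, this was the 1 past the mark. With equal counts on replicates 1, 2 and 3 this ratio is 1 whenever replicate 4 differs from them. The usual rate of about 1 set in 20 marked by chance therefore does not hold for such small counts. The sets also overlap, as those of all members hold the spots of each member. Replicate 4 had 31 C. elegans spots with a signal, against 77 to 133 on the other alpha-synuclein arrays.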

How the results depend on the processing

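A value of a member rests on 1 to 3 arrays and on 1 to 3 spots an array, and depth in the sense of signal over background cannot be judged without a background column. Over 17 alternatives, 1 of them (centring on the 7 microRNAs read on all arrays) chosen after seeing the data, the means of the 3 members in alpha-synuclein and cat-1 against N2, and their averages over strains, stayed above 0 under each alternative that gave them a value, 15 to 17 of the 17. With at least 2 spots, for example, miR-72 and miR-74 had no value in cat-1 or in the average. Several alternatives change only the test, the filter or arrays of another strain, and so cannot move such a mean. Means of that kind kept their direction by construction, also within the counts that follow. The lowest of these means was 0.0022, for miR-74 in cat-1 with dye-control centring. Of 393 values under alternatives, 328 kept direction and side of the threshold, 16 passed it newly and 49 changed sign; none of those that changed sign passed. The cause was not tested for any of these. The count of all microRNAs called in alpha-synuclein against N2, 5 as reported, was 18 without normalization, 25 with the 7 microRNAs, 8 with median centring, 3 with at least 2 spots or the block, 1 with scaling between arrays or the strain fitted alone, and 0 with dye-control centring, 50 added or the plain test. It was 0 without alpha-synuclein replicate 1, 1 without replicate 2 or 3 of that strain, and 2 to 5 without any other array. In the average over strains, 0 as reported, it was 33 without normalization, 19 with the 7 microRNAs, 9 with the deposited table, 6 with scaling between arrays, 5 with median centring and 4 with at least 2 spots, and in cat-1 fitted alone it was 4. In the other comparisons it lay between 0 and 3 throughout.

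Values that newly passed were these. Without normalization within arrays the members stood at 2.73, 2.52 and 2.49 in alpha-synuclein and at 2.04, 2.10 and 2.00 averaged over strains (miR-72, miR-73 and miR-74), with a correlation of miR-72 and miR-74 of 0.948. With the centring on 7 microRNAs they were 1.39, 1.18 and 1.15, and 0.99, 0.80 and 0.83, with the median of all tested at 0.92 in alpha-synuclein and 0.54 in the average. With dye-control centring that correlation was 0.959. miR-72 passed in cat-1 fitted alone (0.91) and in the average over strains with the deposited table (0.54).

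Values that changed sign were these. Against N2 in pdr-1, miR-72 and miR-73 stood at 1.92 and 2.17 without normalization, at 1.5 and 1.93 with dye-control centring, at 0.30 and 0.18 with the 7 microRNAs, at 0.0069 and 0.0086 with S-flagged spots kept, and at 0.043 and 0.41 with at least 2 spots. miR-72 was 0.053 with the replicate block and 0.059 with pdr-1 replicate 4 turned, and miR-73 was 0.0063 with 50 added to signals. For alpha-synuclein minus cat-1, miR-72 and miR-74 were 1.26 and 1.32 without normalization, 1.95 and 2.28 with dye-control centring and 0.12 and 0.54 with the 7 microRNAs. There miR-73 and miR-74 were -0.35 and 0.058 with median centring and -0.53 and 0.10 with the deposited table, and miR-74 was 0.14 with the block. For cat-1 minus pdr-1 the members were -0.45, -0.57 and -1.18 without normalization and -0.93, -1.49 and -1.93 with dye-control centring; miR-74 was -0.13 with the 7 microRNAs and -0.85 with the block, and miR-73 was -0.18 with at least 2 spots. For alpha-synuclein minus pdr-1 miR-74 was -0.058 with scaling between arrays, -0.23 with at least 2 spots and -0.71 with the block. Within arrays, miR-72 minus miR-73 was -0.059 and miR-73 minus miR-74 was 0.095 without loess (the same under no normalization, median, dye-control and 7-microRNA centring). miR-72 minus miR-73 was -0.29 with at least 2 spots, and miR-72 minus miR-74 was 0.016 with spot medians, 0.041 with at least 2 spots, 0.011 with 50 added and 0.086 with pdr-1 replicate 4 turned.

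With each of the 11 arrays left out in turn, 0 of the members' comparisons passed. The ranges were -0.076 to 0.043 for miR-72 and -0.41 to 0.41 for miR-73 in pdr-1, -0.61 to 0.28 for miR-72 and -0.34 to 0.33 for miR-74 in alpha-synuclein minus cat-1, -0.11 to 0.56 for miR-74 in alpha-synuclein minus pdr-1 and -0.18 to 0.64 for miR-73 in cat-1 minus pdr-1. Within arrays they were -0.10 to 0.26, -0.16 to 0.067 and -0.31 to 0.11 for the pairs miR-72 and miR-73, miR-72 and miR-74, and miR-73 and miR-74. The replicate numbers are shared between strains, and no likeness of same-numbered arrays was seen. Deviations of same-numbered arrays from their strain means correlated between -0.779 and 0.109 over 10 pairs, with 1 above 0.1. Each correlation rests on 13 to 47 microRNAs with a wide spread, which cannot show that same-numbered arrays shared no material. With the replicate block miR-72 stood at 0.70 in alpha-synuclein and 1.13 in cat-1. miR-74 moved further, to 0.25 in alpha-synuclein, 0.11 in cat-1 and 0.96 in pdr-1, from 0.50, 0.55 and 0.33. With the block, no call of a member changed; miR-73 could not be estimated against N2 in that fit.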
